A study of Bos taurus with 9 samples.

Results

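The livers of 3 lactating Holstein cows kept under heat stress (HS) were compared with the livers of 3 cows that stayed at thermoneutrality and were pair-fed (PF), 6 of the 9 cows of the study. The 6 were chosen by their treatment labels alone. HS cows went through hot days and warm nights, and PF cows received the feed amount that HS cows ate, so the comparison addresses what heat stress does to the liver apart from eating less. The treatment lasted many days and the biopsies were taken late in it, so the exposure was prolonged rather than acute. The other 3 cows, at thermoneutrality with feed not restricted (TN), are shown beside them and enter no test here. Each cow gave 1 liver biopsy and 1 polyA RNA library and was in 1 group only, so a difference between groups rests on n = 3 cows per group and includes the differences between cows. No transgene, drug or genetic alteration is named for any group, and the ages of the cows are not given in the sources used here.

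Cells answer excess heat through heat shock factors, which switch on chaperones that hold, refold or pass on damaged proteins. The liver adds duties of its own: it makes the plasma proteins of the acute phase, clears hormones, sets the body's iron and exports glucose, lipids and urea. It also converts thyroxine to the active thyroid hormone, and thyroid activity is known to fall in heat-stressed cattle. Its resident macrophages, the Kupffer cells, take up debris and bacterial products that arrive from the gut.

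Expression is given as counts scaled to library size with TMM normalization (CPM, the usual per-library unit), cow by cow in the order of their replicate numbers, and a log2 fold change is HS minus PF with its standard error (SE). A gene counted as differentially expressed (DEG) where edgeR's quasi-likelihood test gave it an FDR below 0.1 and the groups differed by more than 1.5-fold. Of 14510 genes tested, 4 were DEGs (0.0276%), 1 higher in HS (0.00689%) and 3 lower (0.0207%). With RLE size factors in place of TMM, edgeR called 8 genes, 3 higher and 5 lower. DESeq2 on the same libraries called 121 genes (0.751%), 72 higher (0.447%) and 49 lower (0.304%). An unadjusted p under 0.05 in edgeR was reached by 772 genes (5.32%), 446 of them higher (3.07%) and 326 lower (2.25%). The 3 HS and 3 PF cows did not overlap in 1528 genes (10.5%), with HS above PF in 864 (5.95%) and below in 664 (4.58%). Counts for a gene list below are to be read against these shares, and against the median of all genes tested, 0.01, of which 50.9% were positive. Only the DEGs passed the test, and every other gene is given by its values. A range in square brackets is over the 6 fits that each left out 1 cow.

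The 6 libraries held 17115076 to 22557047 counts, and 3 counts, the limit that a count of 0 allows, stood for 0.111 to 0.202 CPM in HS and PF cows. PF replicate 1 had the fewest genes with a count, 15848 against 17162 to 18309 in the other 5. Hepatocyte markers showed the tissue to be liver. For 10 hepatocyte markers tested the median log2 fold change was -0.07 [-0.34 to 0.03], and p under 0.05 was reached by 0 genes higher in HS and 0 [0 to 3] lower. *ALB*, which encodes albumin, stood at 36176, 33905 and 81431 CPM in HS against 82515, 49294 and 54438 CPM in PF cows. The summed hepatocyte markers were at 60623 CPM or more in every HS and PF cow. TN replicate 1 stood apart at 18602 CPM, against 81368 and 68151 CPM in TN replicates 2 and 3. Red cell markers were low, with summed levels of 1.70, 2.51 and 0.875 CPM in HS and 0.592, 2.63 and 3.21 CPM in PF cows. Of the other tissues, the trypsinogen gene *PRSS2* was at 33.9, 21.2 and 17.6 CPM in HS against 24.2, 0.447 and 0 CPM in PF cows, at 17.6 CPM or more in every HS cow and in PF replicate 1 and at or near 0 in the other cows. The exocrine pancreas list it belongs to, 4 markers tested of 11 listed, held 2 positive and 2 negative log2 fold changes. Their median was 0.06 [-0.08 to 0.46]. The summed level of that list was 130, 198 and 148.5 CPM in HS and 193, 183 and 195 CPM in PF cows.

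**Figure D1:**
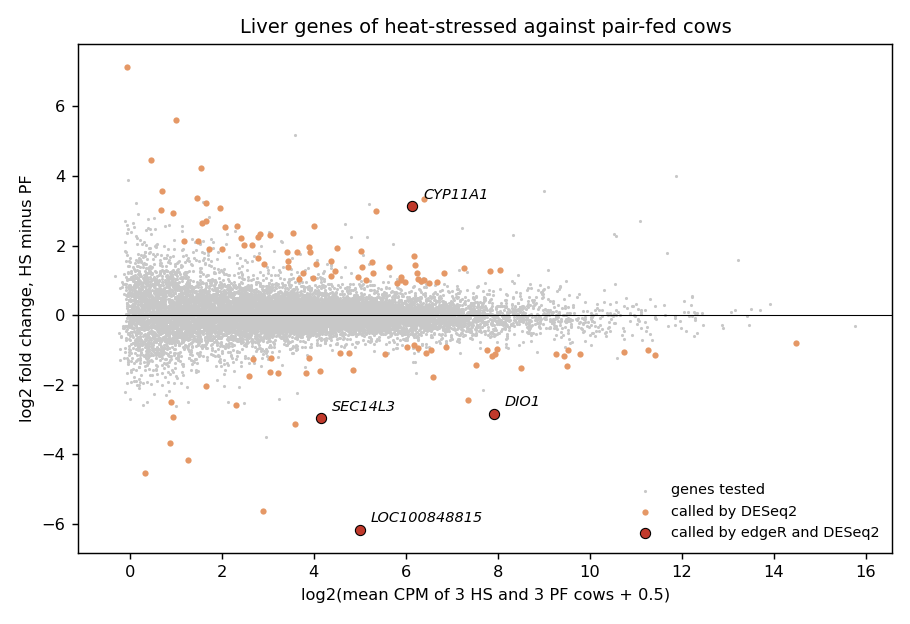
Each dot is 1 of the 14510 genes tested, with the mean level of the 6 cows on the x axis, as log2(CPM + 0.5), and the log2 fold change, HS minus PF, on the y axis. The 4 named genes passed both edgeR and DESeq2 and lie far from the line at 0, *CYP11A1* above it and the other 3 below it.

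The DEG higher in HS was *CYP11A1*, the mitochondrial enzyme that cuts the side chain of cholesterol to make pregnenolone, the first step of steroid hormone synthesis. Its level was 121, 117 and 141 CPM in the HS cows and 9.83, 19.3 and 13.8 CPM in the PF cows. The groups lay far apart, each within a narrow range, and the mean was 8.79-fold higher in HS (log2 fold change 3.14 ± 0.29, FDR = 0.00269). TN cows, at 25.2, 64.4 and 173 CPM, spread across the whole distance between both groups. Over the fits without 1 of the cows its log2 fold change stayed between 2.93 and 3.41, and the call held in all 6 fits, but not in the fit of all 9 libraries.

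No other gene of the steroid pathway was a DEG. Among the 24 genes of steroid synthesis and metabolism tested of 34 listed, the median log2 fold change was -0.01 [-0.07 to 0.16], with 1 [1 to 4] genes higher and 1 [0 to 2] lower in HS at p under 0.05. *STAR*, which brings cholesterol to CYP11A1, was 6.20, 3.92 and 5.38 CPM in HS against 6.22, 4.19 and 4.43 CPM in PF cows (0.06 ± 0.34). *HSD3B1*, the enzyme after it, scattered within groups, at 14.2, 33.7 and 3.36 CPM in HS against 4.44, 3.74 and 18.2 CPM in PF cows. *AKR1D1*, which reduces steroids on the way to bile acids and for clearance, had a log2 fold change of -0.67 ± 0.29 (FDR = 0.908), and *SULT1E1*, the estrogen sulfotransferase, 1.15 ± 0.52 (FDR = 0.941). Since *CYP11A1* is best known from the adrenal cortex, the markers of that tissue were read beside it. *CYP11B1*, *MC2R* and *NR5A1* had 0 counts in all 9 cows, *CYP17A1* had 1 count in 1 PF cow, and *CYP21* had at most 15 counts. The 4 adrenal cortex markers tested of 9 listed, *CYP11A1* itself, *STAR*, *HSD3B1* and *MRAP*, had positive log2 fold changes, with a median of 0.89 [0.45 to 1.58]. Both the signs and the median include *CYP11A1*, the only member with p under 0.05. The value of *STAR* was near 0 and turned negative in some fits that left out 1 cow. The summed level of the list was 143, 154 and 151 CPM in HS and 20.5, 28.05 and 37.2 CPM in PF cows, and without *CYP11A1* it was 21.7, 37.9 and 9.96 CPM in HS and 10.7, 8.77 and 23.4 CPM in PF cows, with overlap.

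The DEG with the smallest p was LOC100848815, which RefSeq gives the synonym BoLA-DQA, an alpha chain of the class II major histocompatibility complex (MHC) that presents peptides to helper T cells. It was low in every HS cow, on 41, 5 and 9 counts, and far higher in every PF cow, with 1.51, 0.292 and 0.606 CPM in the HS cows and 92.5, 47.5 and 46.9 CPM in the PF cows. The log2 fold change was -6.17 ± 0.53, FDR = 0.00226. TN cows fell on both sides, at 72.3, 100.5 and 0.716 CPM, so 1 TN cow was as low as the HS cows. Class II alpha chain genes of the DQ type are near-identical copies and differ between cattle haplotypes, so how reads were split among them is uncertain. The haplotypes of these cows are not given in the sources used here. With so few cows a difference in haplotype cannot be told apart from the treatment, and its part was not tested. The sister gene *BOLA-DQA2* went the other way, at 22.6, 10.1 and 12.5 CPM in HS against 0, 6.76 and 3.57 CPM in PF cows (2.13 ± 0.86, FDR = 0.874), and was at 0 in PF replicate 1 and in TN replicate 1. The 13 genes of class II presentation tested of 19 listed had a median log2 fold change of 0.30 [-0.09 to 0.52], with 2 [0 to 4] higher and 1 lower in HS at p under 0.05. The median turned to -0.09 without HS replicate 1. *BOLA-DMB*, which helps load the peptide, was at 83.03, 52.5 and 60.4 CPM in HS against 38.1, 50.5 and 41.2 CPM in PF cows (0.59 ± 0.25, FDR = 0.902). For 15 class I presentation genes tested the median log2 fold change was 0.15 [0.02 to 0.20], and p under 0.05 was reached by 0 genes higher in HS and 0 [0 to 1] lower.

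*DIO1*, the deiodinase that turns thyroxine into triiodothyronine in liver and clears reverse triiodothyronine, fell 7.10-fold. It was read at 67.5, 52.5 and 59.9 CPM in the HS cows and 503, 429 and 343 CPM in the PF cows, with every HS cow far below every PF cow and little spread inside the HS group (log2 fold change -2.83 ± 0.28, FDR = 0.00294). TN cows, at 279.6, 267 and 463 CPM, were also above all HS cows, and the lowest PF cow lay below the highest TN cow. *DIO1* was a DEG in each of the 6 fits with a cow left out and in the fit of all 9 libraries. Its annotation overlaps *IFT25*, listed under the older symbol *HSPB11*, whose log2 fold change was 0.16 ± 0.30 (FDR = 1).

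No other gene of thyroid hormone action was a DEG. Of 23 genes of this list tested of 28 listed, 0 had p under 0.05 on the higher side and 1 [1 to 6] on the lower, around a median log2 fold change of -0.12 [-0.08 to 0.05]. The median lay outside its own range. Each fit filtered genes anew, so the members tested could differ between fits. The other deiodinases were near absent, *DIO2* with 0 counts in all HS and PF cows and *DIO3* with 5 counts in 1 HS cow. The transporter *SLCO1B3*, which takes thyroid hormones and bile acids into hepatocytes, read 382, 483 and 868 CPM in HS against 1330.0, 968 and 669.7 CPM in PF cows (-0.78 ± 0.38, FDR = 0.949). *UGT1A1*, which conjugates thyroxine and bilirubin, lay lower in all 3 HS cows, at 251, 359.6 and 385 CPM in HS against 466, 484 and 473 CPM in PF cows (-0.52 ± 0.27, FDR = 0.96). *IYD*, which recovers iodide, was at 23.6, 22.9 and 41.6 CPM in HS against 33.6, 22.96 and 22.8 CPM in PF cows (0.14 ± 0.29).

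*SEC14L3*, a SEC14-like lipid-binding protein, fell 7.81-fold. Its level was 2.58, 4.74 and 4.58 CPM in the HS cows and 36.3, 29.7 and 25.9 CPM in the PF cows, against 8.05, 10.5 and 14.97 CPM in TN cows. Here the groups stood in 3 steps with no overlap, HS lowest and PF highest (log2 fold change -2.97 ± 0.30, FDR = 0.00294), and the call held in all 6 fits with a cow left out and with all 9 libraries. Its annotation overlaps *MTFP1*. For 16 SEC14-like and lipid transfer genes tested of 18 listed the median log2 fold change was -0.02 [-0.22 to 0.02], and p under 0.05 was reached by 0 genes higher in HS and 2 [1 to 3] lower. The family member *SEC14L4* was 4.87, 4.21 and 3.70 CPM in HS against 9.41, 4.47 and 7.75 CPM in PF cows (-0.76 ± 0.35, FDR = 0.947). *FABP1*, the fatty acid binding protein of liver, varied more among PF than HS cows, at 745, 726 and 1306 CPM in HS against 1465, 4139 and 903 CPM in PF cows (-1.23 ± 0.52, FDR = 0.908). *TTPA*, the vitamin E transfer protein, read 163, 183 and 235 CPM in HS against 295, 192 and 181 CPM in PF cows (-0.21 ± 0.29).

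**Figure D2:**
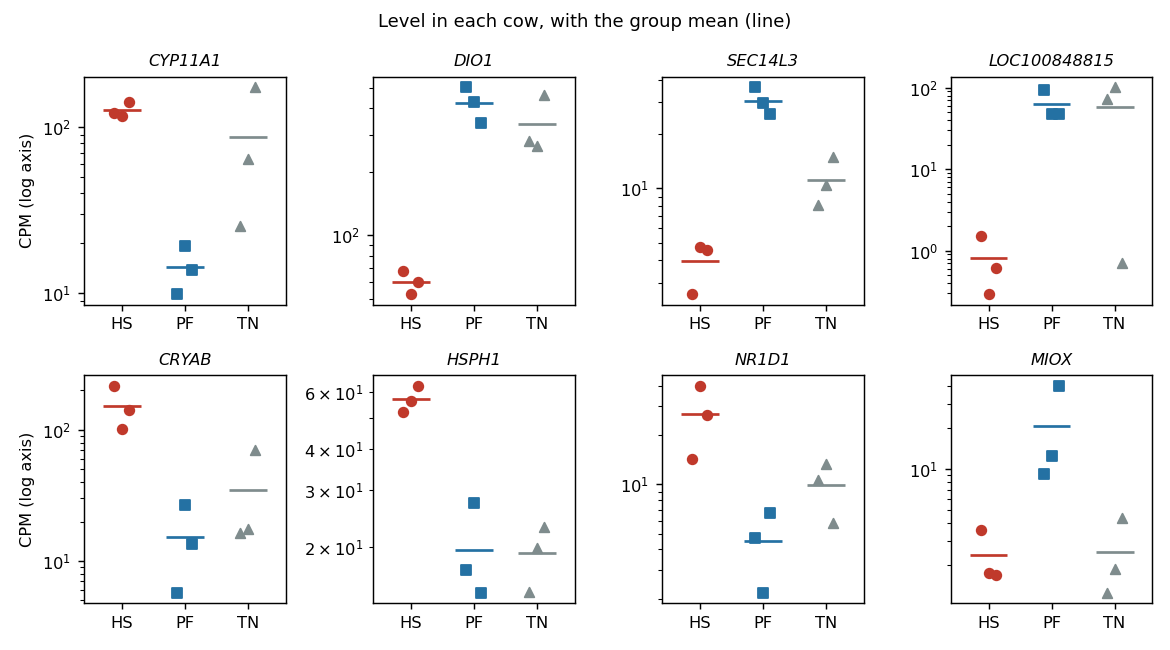
The CPM of 8 genes in each of the 9 cows is plotted on log axes, with circles for HS, squares for PF, triangles for TN and a line at the mean of the 3 cows. The genes drawn were picked from those whose HS and PF cows did not overlap, so their separation in all 8 panels was fixed beforehand. The TN cows lie near PF (*DIO1*), near HS (*MIOX*), between them (*SEC14L3*) or across both (*CYP11A1*).

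The genes nearest the threshold, 10 in each direction with the smallest p among those whose cows did not overlap, included all 4 DEGs. The other 16 had FDRs of 0.102 to 0.215 and all 20 were called by DESeq2. Among those higher in HS, *CRYAB*, the small heat shock protein alpha B-crystallin, was 217, 102 and 141 CPM in HS against 5.74, 26.7 and 13.5 CPM in PF cows (3.33 ± 0.51, FDR = 0.102). *APOBEC2*, a member of the cytidine deaminase family, read 4.32, 8.07 and 5.92 CPM in HS against 0.947, 0.391 and 0.815 CPM in PF cows (3.07 ± 0.48, FDR = 0.102). *S1PR3*, a sphingosine 1-phosphate receptor, was 28.9, 35.8 and 25.9 CPM in HS against 13.3, 8.88 and 8.36 CPM in PF cows (1.57 ± 0.26, FDR = 0.127). The other protein-coding genes were *RASEF*, a Rab GTPase (3.37 ± 0.57, FDR = 0.127), *WFDC2*, a secreted protein of epithelia (2.99 ± 0.51, FDR = 0.127), *HSPH1*, and *CHRM1*, a muscarinic acetylcholine receptor. *CHRM1* had at most 3 counts in every PF cow, and its HS mean was at least 17.8-fold higher than 3 counts per library. The non-coding LOC100847382, which overlaps *DTNB*, read 14.2, 11.9 and 12.6 CPM in HS against 1.72, 1.84 and 4.18 CPM in PF cows (2.31 ± 0.38, FDR = 0.123), and LOC104976281 had a log2 fold change of 1.56 ± 0.27 (FDR = 0.127).

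On the lower side stood *PDYN*, the precursor of the dynorphin opioid peptides, at 0.111, 0.234 and 0.269 CPM in HS against 2.72, 2.68 and 5.35 CPM in PF cows (-4.15 ± 0.65, FDR = 0.102). Its HS levels were at or near the floor, since 3 counts stood for 0.111, 0.175 and 0.202 CPM in these cows. *MIOX*, which breaks down myo-inositol, was 3.58, 1.75 and 1.68 CPM in HS against 9.18, 12.5 and 40.4 CPM in PF cows (-3.12 ± 0.56, FDR = 0.143), and TN cows, at 1.25, 1.85 and 4.35 CPM, overlapped HS. *BREH1*, a retinyl ester hydrolase, read 65.7, 61.3 and 24.6 CPM in HS against 208, 145 and 475 CPM in PF cows (-2.45 ± 0.49, FDR = 0.215). *RUNDC3B* (-2.59 ± 0.49, FDR = 0.17), *LINGO4* (-1.61 ± 0.31, FDR = 0.171), LOC101905593 (-1.24 ± 0.23, FDR = 0.155) and LOC112441460 (-5.64 ± 0.87, FDR = 0.102) completed the set. The annotation of LOC112441460 lies on unplaced sequence.

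Most cytosolic chaperones had positive log2 fold changes, although none was a DEG. Among the 24 HSP70, HSP110 and HSP40 genes tested, the median log2 fold change was 0.32 [0.27 to 0.46], with 7 [4 to 8] genes higher and 0 lower in HS at p under 0.05. 20 were positive and 4 negative. *HSPH1*, the HSP110 exchange factor that resets HSP70, was 52.1, 56.1 and 62.6 CPM in HS against 16.99, 27.4 and 14.5 CPM in PF cows, with every HS cow above every PF cow (1.53 ± 0.27, FDR = 0.127). *DNAJB1*, an HSP40 that feeds clients to HSP70, read 97.1, 87.6 and 124 CPM in HS against 43.3, 59.9 and 47.9 CPM in PF cows (1.03 ± 0.24, FDR = 0.35). *HSPA6*, an HSP70 form made almost only under stress, was low but separate, at 4.36, 3.92 and 4.98 CPM in HS against 1.42, 0.615 and 1.48 CPM in PF cows (1.90 ± 0.47, FDR = 0.405). DESeq2 called these 3, and edgeR called *HSPH1* in the fit without PF replicate 2. *DNAJB4* (0.82 ± 0.23, FDR = 0.564), *DNAJB6* (0.55 ± 0.24, FDR = 0.91) and *DNAJB2* (0.51 ± 0.23, FDR = 0.926) were also higher in each HS cow than in any PF cow. The reverse held for *DNAJB12* (-0.46 ± 0.30, FDR = 1) and *DNAJC7* (-0.22 ± 0.20, FDR = 1). The main inducible HSP70 gene *HSPA1A* overlapped, at 268, 327 and 675 CPM in HS against 127, 300.2 and 215 CPM in PF cows (0.98 ± 0.41, FDR = 0.908), and its near-identical copies make the split of reads uncertain. The constitutive *HSPA8* had a log2 fold change of 0.29 ± 0.32 (FDR = 1).

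HSP90 finishes the folding of receptors and kinases with a set of co-chaperones. The 23 HSP90 genes and co-chaperones tested had a median log2 fold change of 0.22 [0.04 to 0.37], with 6 [2 to 7] higher and 0 [0 to 1] lower in HS at p under 0.05. *FKBP5*, a co-chaperone of steroid receptors that glucocorticoids induce, was 55.7, 23.7 and 26.6 CPM in HS against 8.41, 12.9 and 6.37 CPM in PF cows (1.94 ± 0.38, FDR = 0.183) and was called by DESeq2. *STIP1*, which links HSP70 to HSP90, read 60.1, 71.2 and 81.1 CPM in HS against 25.9, 53.5 and 40.9 CPM in PF cows (0.82 ± 0.28, FDR = 0.7). *FKBP4* (0.75 ± 0.29, FDR = 0.821), *AHSA1*, an activator of the HSP90 ATPase (0.73 ± 0.29, FDR = 0.834), and *CHORDC1* (0.52 ± 0.24, FDR = 0.938) also did not overlap between groups. The inducible *HSP90AA1* was 614, 456 and 827 CPM in HS against 412, 449.8 and 279 CPM in PF cows (0.73 ± 0.32, FDR = 0.908), and the constitutive *HSP90AB1* 0.28 ± 0.29. Without HS replicate 3 the median fell to 0.04.

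Of 6 small heat shock protein genes tested of 9 listed, 2 [2 to 3] had p under 0.05 on the higher side and 0 on the lower, around a median log2 fold change of 0.53 [0.36 to 0.65]. Besides *CRYAB*, *HSPB2*, known from heart and muscle, was separate, at 5.94, 5.32 and 3.84 CPM in HS against 2.66, 2.35 and 1.68 CPM in PF cows (1.17 ± 0.39, FDR = 0.669). *HSPB1*, the HSP27 gene, was 665, 616 and 1044 CPM in HS against 293, 651 and 500.4 CPM in PF cows (0.68 ± 0.36, FDR = 0.96), with PF replicate 2 inside the HS range. The factors that drive these genes are controlled mainly at the protein level. For 5 heat shock factor genes tested the median log2 fold change was 0.02 [-0.04 to 0.27], and p under 0.05 was reached by 0 genes higher in HS and 0 lower. *HSF1*, the master regulator, read 22.3, 19.8 and 34.6 CPM in HS against 18.4, 23.6 and 18.1 CPM in PF cows (0.35 ± 0.26). With RLE size factors the medians of the 3 chaperone lists were 0.31, 0.22 and 0.52.

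**Figure D3:**
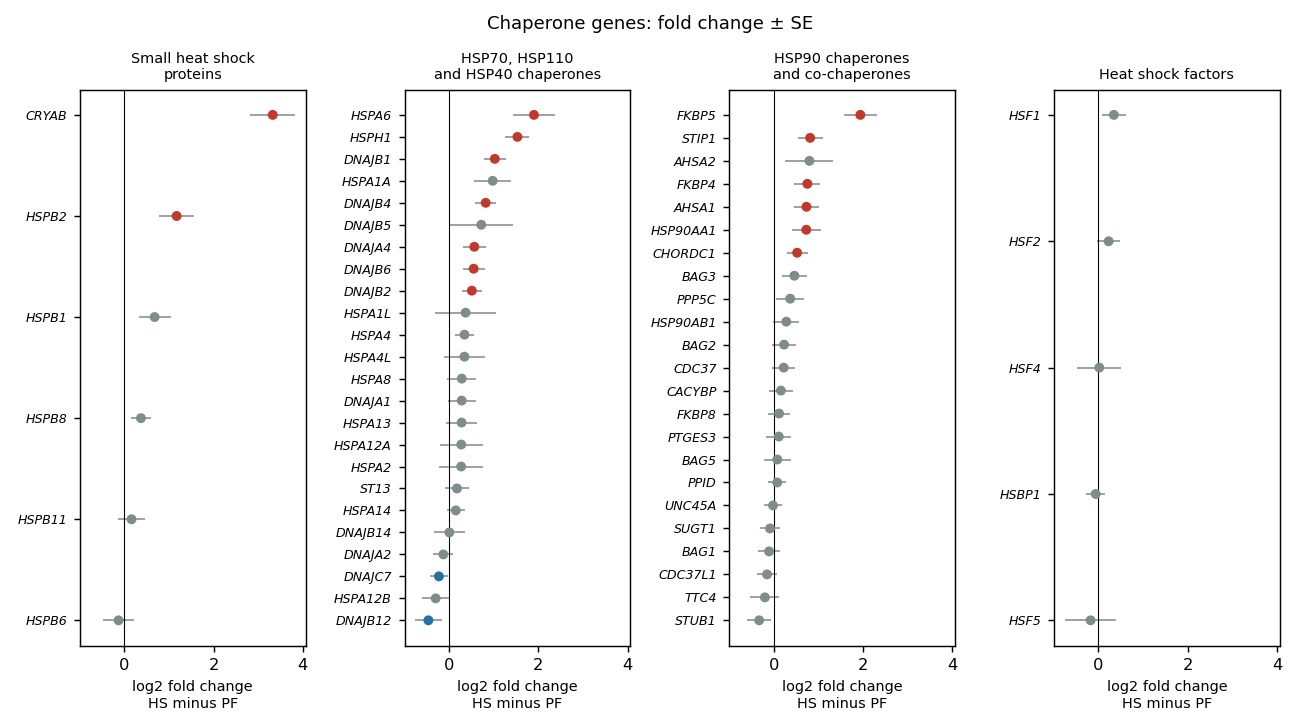
Each point is the log2 fold change, HS minus PF, of a chaperone or heat shock factor gene and the bar is its SE, with 3 cows in each group. Red points mark genes whose 3 HS cows all lay above the 3 PF cows, blue points the reverse and grey points an overlap. Genes are sorted by log2 fold change within each panel, so red points lie toward the top by the way the panels were drawn.

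Other compartments have chaperones of their own. Among the 34 ER chaperone and unfolded protein response genes tested, the median log2 fold change was 0.15 [0.07 to 0.26], with 3 [1 to 4] genes higher and 0 [0 to 1] lower in HS at p under 0.05. *DERL3*, which helps export misfolded proteins from the endoplasmic reticulum (ER), was 9.01, 6.61 and 8.81 CPM in HS against 5.09, 4.75 and 3.16 CPM in PF cows (0.91 ± 0.32, FDR = 0.713). *PDIA4*, a disulfide isomerase, had a log2 fold change of 0.61 ± 0.27 (FDR = 0.923), and *SIL1*, the exchange factor of the ER HSP70, 0.75 ± 0.34 (FDR = 0.934). The 16 mitochondrial chaperone and protease genes tested had a median log2 fold change of 0.07 [-0.07 to 0.17], with 0 [0 to 2] higher and 0 lower in HS at p under 0.05. *HSPE1* (HSP10) read 183, 327 and 374 CPM in HS against 116, 239.9 and 188 CPM in PF cows (0.69 ± 0.35) and its partner *HSPD1* (HSP60) 0.40 ± 0.29.

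Of 21 ATF4 target genes tested of 22 listed, 1 [0 to 5] had p under 0.05 on the higher side and 2 [0 to 3] on the lower, around a median log2 fold change of 0.20 [0.08 to 0.39]. The members went both ways, and *SESN2*, a stress sensor that restrains mTORC1, was 8.97, 11.1 and 8.41 CPM in HS against 4.91, 5.36 and 6.27 CPM in PF cows (0.78 ± 0.28, FDR = 0.755). *ATF5*, a transcription factor of the same response, was 267, 195 and 203 CPM in HS against 328, 391.6 and 353 CPM in PF cows (-0.69 ± 0.26, FDR = 0.795). *FGF21*, the fasting hormone of the liver, was highest in a PF cow, at 0.960, 2.57 and 0 CPM in HS against 1.42, 28.5 and 10.2 CPM in PF cows (-3.49 ± 1.06, FDR = 0.625), and PF replicate 1 lay inside the HS range.

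All 31 proteasome subunits tested had a negative log2 fold change, but none was a DEG and in 0 of them did every HS cow lie below every PF cow. For 31 subunits tested the median log2 fold change was -0.36 [-0.55 to -0.18], and p under 0.05 was reached by 0 genes higher in HS and 1 [0 to 10] lower. *PSMC4*, an ATPase of the regulatory cap, was 41.6, 37.4 and 53.2 CPM in HS against 76.4, 87.7 and 50.6 CPM in PF cows (-0.70 ± 0.26, FDR = 0.795). *PSMB3*, of the catalytic core, was 63.4, 76.8 and 97.97 CPM in HS against 114, 137 and 93.9 CPM in PF cows (-0.54 ± 0.26, FDR = 0.949). HS replicate 3 overlapped PF in both. Without PF replicate 2 the median was -0.18, and without HS replicate 3 it was -0.55.

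The 13 proteins encoded by mitochondrial DNA, all subunits of the respiratory chain or of ATP synthase, took 5.47%, 5.68% and 3.85% of the counts in the HS cows and 6.90%, 7.13% and 7.79% in the PF cows. HS lay below PF in every cow, with means of 4.996% ± 1.003 and 7.28% ± 0.46 (SD, n = 3). The difference of -2.28 percentage points had p = 0.1 in an exact two-sided permutation test, the smallest p that 20 splits allow, and was -2.62 to -1.70 with 1 cow left out. Counting error was small beside it, the widest 95% Wilson interval being 0.0397 points. TN cows were far higher, at 22.2%, 13.6% and 18.3%, the highest being TN replicate 1, whose hepatocyte markers were low.

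All 13 genes had a negative log2 fold change and none was a DEG. Among the 13 mitochondrial genes tested, the median log2 fold change was -0.47 [-0.63 to -0.38], with 0 genes higher and 3 [2 to 4] lower in HS at p under 0.05. *ND3* of complex I was 1220.3, 2015 and 1897 CPM in HS against 3712, 3229 and 4290.4 CPM in PF cows (-1.13 ± 0.32, FDR = 0.576). *ND6*, the one of the light strand, was 495, 506 and 284 CPM in HS against 1269.9, 839 and 775 CPM in PF cows (-1.17 ± 0.34, FDR = 0.589). *COX1* of complex IV read 14760.0, 20232 and 14954 CPM in HS against 29782, 30847 and 26774 CPM in PF cows (-0.81 ± 0.33, FDR = 0.88). The annotation of *ND6* overlaps that of *ND5* on the other strand. DESeq2 called *ND3*, *ND6* and *COX1*, and in 6 of the 13 genes HS and PF cows did not overlap. The nuclear partners were described in the same way. The 75 nuclear respiratory chain genes tested of 76 listed had a median log2 fold change of -0.02 [-0.22 to 0.12], with 0 [0 to 2] higher and 0 [0 to 1] lower in HS at p under 0.05. The difference between the mitochondrial and the nuclear list was not tested.

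**Figure D4:**
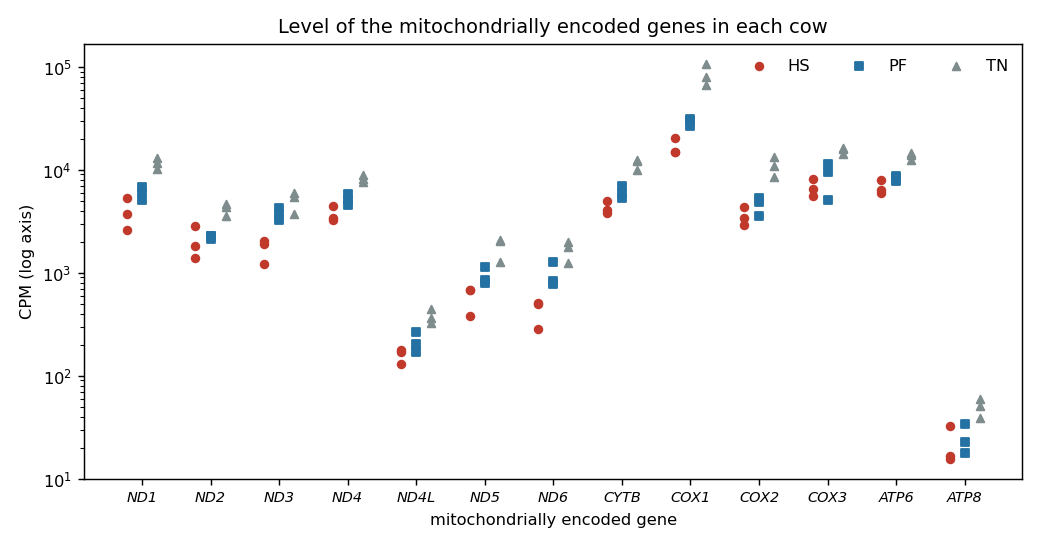
The CPM of each of the 13 mitochondrially encoded genes is plotted on a log axis for each cow, with circles for HS, squares for PF and triangles for TN. HS cows tend to lie below PF cows and TN cows above both, with overlap between HS and PF in 7 of the 13 genes.

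Plasma proteins of the acute phase, which the liver secretes in inflammation, spread widely between cows. Of 23 positive acute phase genes tested of 29 listed, 6 [2 to 8] had p under 0.05 on the higher side and 0 [0 to 1] on the lower, around a median log2 fold change of 0.37 [-0.09 to 0.65]. The median turned to -0.09 without HS replicate 2, so it rested on that cow. *A2M*, the protease inhibitor alpha-2-macroglobulin, was higher in each HS cow, at 373, 851 and 378 CPM in HS against 64.5, 188 and 70.5 CPM in PF cows (2.31 ± 0.49, FDR = 0.287). *ORM1* (alpha-1-acid glycoprotein) read 6424, 29183 and 7803 CPM in HS against 6055, 4892 and 3530.0 CPM in PF cows (1.58 ± 0.55, FDR = 0.718). *ITIH4*, a main acute phase protein of cattle, was 2001, 9542 and 3841 CPM in HS against 855, 2205 and 1414 CPM in PF cows (1.78 ± 0.56, FDR = 0.641). *SAA2* and *SAA3*, serum amyloid A genes, had log2 fold changes of 2.72 ± 0.92 (FDR = 0.685) and 2.05 ± 0.61 (FDR = 0.624). Haptoglobin (*HP*), which binds free hemoglobin, was read at 1722, 19381 and 234 CPM in the HS cows and 9.18, 1103 and 210.4 CPM in the PF cows (4.01 ± 1.59, FDR = 0.847).

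Carrier proteins are known to fall in the acute phase. For 15 negative acute phase and carrier genes tested the median log2 fold change was -0.02 [-0.46 to -0.01], and p under 0.05 was reached by 0 genes higher in HS and 2 [0 to 4] lower. The lower ones were paraoxonases, antioxidant enzymes carried on HDL, *PON3* at 223, 234 and 172 CPM in HS against 339.7, 459 and 324 CPM in PF cows (-0.84 ± 0.27, FDR = 0.669) and *PON1* at 522, 654 and 974 CPM in HS against 1280.3, 1230.5 and 1047 CPM in PF cows (-0.73 ± 0.31, FDR = 0.908). Among the 29 inflammatory signaling genes tested of 32 listed, the median log2 fold change was 0.23 [0.04 to 0.26], with 1 [0 to 3] genes higher and 0 lower in HS at p under 0.05. *IL1B*, the macrophage cytokine, was 18.7, 16.4 and 27.6 CPM in HS against 11.5, 13.3 and 11.1 CPM in PF cows (0.80 ± 0.26, FDR = 0.668). *MYD88*, the adaptor of Toll-like receptors, was 27.1, 28.3 and 30.8 CPM in HS against 18, 23.4 and 21.5 CPM in PF cows (0.45 ± 0.21, FDR = 0.948). The 33 interferon-stimulated genes tested of 35 listed had a median log2 fold change of 0.26 [-0.17 to 0.34], with 2 [0 to 3] higher and 0 [0 to 3] lower in HS at p under 0.05. Their median was -0.17 without HS replicate 3. *IFIT2* (0.74 ± 0.29, FDR = 0.847) and *DHX58*, an RNA sensor (0.78 ± 0.32, FDR = 0.9), were higher in every HS cow.

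All 10 Kupffer cell and macrophage markers had a positive log2 fold change, with a median of 0.92 [0.68 to 1.19] and 8 [3 to 8] genes higher at p under 0.05. *VSIG4*, a complement receptor of Kupffer cells, was 18.1, 11.6 and 14.2 CPM in HS against 8.94, 7.32 and 4.89 CPM in PF cows (1.05 ± 0.30, FDR = 0.587). *CD68* was 92.1, 43.4 and 57.3 CPM in HS against 33.3, 34.5 and 31.1 CPM in PF cows (0.96 ± 0.28, FDR = 0.608). *MARCO*, a scavenger receptor, read 138, 143 and 329 CPM in HS against 74.1, 129 and 44.7 CPM in PF cows (1.30 ± 0.44, FDR = 0.679). The summed level of the list was 2616, 1819.7 and 3149.9 CPM in HS and 1389, 1714 and 1043 CPM in PF cows, without overlap, and 1258, 2895 and 1533 CPM in TN cows. In bulk tissue, more cells of a type and more RNA per cell cannot be told apart. Of 7 neutrophil and monocyte markers tested of 9 listed, 3 [0 to 4] had p under 0.05 on the higher side and 0 on the lower, around a median log2 fold change of 1.06 [0.91 to 1.56]. Their summed level overlapped, at 48.7, 78.4 and 136 CPM in HS and 14.98, 61.1 and 24.5 CPM in PF cows. The part of these cells in the acute phase, inflammatory, complement and iron results was not tested.

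Other cells of the liver were read from their own marker lists. Among the 9 endothelial markers tested of 10 listed, the median log2 fold change was 0.06 [-0.25 to 0.22], with 0 genes higher and 0 [0 to 1] lower in HS at p under 0.05, and among 10 stellate cell markers it was -0.17 [-0.65 to 0.11]. The 8 T and NK cell markers tested of 10 listed had a median log2 fold change of -0.31 [-0.45 to -0.24], with 1 higher and 0 [0 to 1] lower in HS at p under 0.05, the higher one being *NKG7*, a cytotoxic granule gene (0.72 ± 0.21, FDR = 0.614). The median of 8 B and plasma cell markers was 0.52 [0.28 to 0.66]. For 10 bile duct and epithelial markers tested of 12 listed the median log2 fold change was 0.07 [-0.91 to 0.40], and p under 0.05 was reached by 2 [2 to 3] genes higher in HS and 0 [0 to 4] lower. The higher ones were *WFDC2*, at 47.4, 60.3 and 109 CPM in HS against 9.18, 3.02 and 14.9 CPM in PF cows, and the tight junction gene *CLDN4*, at 15.7, 12.7 and 4.98 CPM in HS against 0.355, 2.74 and 3.52 CPM in PF cows (2.32 ± 0.65, FDR = 0.557). The bile duct keratin *KRT19* read 36.1, 10.99 and 5.99 CPM in HS against 11.96, 47.5 and 15.7 CPM in PF cows (-0.49 ± 0.63).

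Iron and complement genes belong to the same secretory role of the liver. Among the 28 genes of hepcidin control and iron handling tested, the median log2 fold change was 0.00 [-0.09 to 0.11], with 4 [3 to 8] genes higher and 1 [0 to 2] lower in HS at p under 0.05. *ATOH8*, a BMP target that activates the hepcidin promoter, was 54.5, 50.3 and 57.1 CPM in HS against 19.2, 17.7 and 33.3 CPM in PF cows (1.199 ± 0.27, FDR = 0.315). *HJV*, the hemojuvelin co-receptor, read 41.5, 41.3 and 131 CPM in HS against 33.4, 19.5 and 28.1 CPM in PF cows (1.39 ± 0.43, FDR = 0.638). *SMAD6*, an inhibitor of the pathway, was 28.3, 18.4 and 21.3 CPM in HS against 8.41, 14.2 and 14.4 CPM in PF cows (0.87 ± 0.28, FDR = 0.668). *SMAD1*, which transmits the signal, was lower, at 25.8, 31.2 and 25.6 CPM in HS against 34.6, 47.1 and 35.5 CPM in PF cows (-0.51 ± 0.22, FDR = 0.908). Hepcidin itself, *HAMP*, stood at 529.7, 527 and 418 CPM in HS against 72.04, 684 and 145 CPM in PF cows (0.71 ± 0.64, FDR = 1), with PF replicate 2 above every HS cow. *HMOX1*, heme oxygenase, which frees iron from heme and is also abundant in macrophages, was 243, 124 and 296 CPM in HS against 76.5, 97.2 and 84.9 CPM in PF cows (1.35 ± 0.32, FDR = 0.377).

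The 30 complement genes tested had a median log2 fold change of 0.10 [0.03 to 0.24], with 4 [0 to 4] higher and 0 [0 to 1] lower in HS at p under 0.05. The higher ones were 2 C1q chains made by macrophages, *C1QB* (0.74 ± 0.29, FDR = 0.821) and *C1QC* (0.85 ± 0.32, FDR = 0.806), the terminal component *C6*, at 438, 683 and 619.7 CPM in HS against 342, 369 and 347 CPM in PF cows (0.71 ± 0.28, FDR = 0.821), and properdin, *CFP* (0.49 ± 0.21, FDR = 0.908). Of 25 coagulation genes tested, 1 [0 to 1] had p under 0.05 on the higher side and 1 on the lower, around a median log2 fold change of 0.10 [-0.08 to 0.24]. *HRG*, a histidine-rich plasma glycoprotein, was lower, at 366, 315 and 485 CPM in HS against 861, 1039 and 612 CPM in PF cows (-1.11 ± 0.31, FDR = 0.564), and was called by DESeq2.

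None of the clock genes was a DEG, and their log2 fold changes went in both directions. In the fit without HS replicate 1, *NR1D1* was called. For 19 clock genes tested of 21 listed the median log2 fold change was 0.19 [-0.02 to 0.30], and p under 0.05 was reached by 5 [3 to 6] genes higher in HS and 3 [2 to 3] lower. Clock genes swing with the hour, and the hour of biopsy is not given in the sources used here. *NR1D1*, the repressor REV-ERB alpha, was 14.2, 39.9 and 26.4 CPM in HS against 4.68, 2.18 and 6.63 CPM in PF cows, the lowest HS cow lying above the highest PF cow (2.57 ± 0.45, FDR = 0.127). Its relative *NR1D2* read 58.5, 54.96 and 46.02 CPM in HS against 40.8, 26.5 and 24.8 CPM in PF cows (0.79 ± 0.25, FDR = 0.654). *ARNTL*, the activator that REV-ERB represses, was on the other side, at 4.69, 11.3 and 12.4 CPM in HS against 14.4, 16.1 and 22.1 CPM in PF cows (-0.91 ± 0.36, FDR = 0.832), as was *CRY1*, at 8.57, 6.02 and 6.26 CPM in HS against 11.7, 12.9 and 12.7 CPM in PF cows (-0.83 ± 0.26, FDR = 0.642). The output factors *TEF* (0.64 ± 0.21, FDR = 0.669) and *DBP* (0.77 ± 0.34, FDR = 0.919) and the period gene *PER3* (0.83 ± 0.34, FDR = 0.875) were higher, *DBP* and *PER3* with overlap between the groups. DESeq2 called 1 clock gene higher in HS, *NR1D1*, and 1 lower. The annotation of *NR1D1* overlaps that of *THRA*, whose log2 fold change was 0.26 ± 0.27 (FDR = 1).

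Among the 19 glucocorticoid receptor and target genes tested of 20 listed, the median log2 fold change was 0.02 [-0.19 to 0.13], with 1 [1 to 3] genes higher and 2 [1 to 3] lower in HS at p under 0.05. *FKBP5*, described above, was the higher one. *ERRFI1*, a feedback inhibitor of the EGF receptor, was lower, at 126, 192 and 149.6 CPM in HS against 277, 340.2 and 387 CPM in PF cows (-1.11 ± 0.27, FDR = 0.405), and so was the kinase *SGK1*, at 65.1, 73.8 and 38.5 CPM in HS against 81.8, 123 and 79.96 CPM in PF cows (-0.68 ± 0.30, FDR = 0.908). The 18 growth hormone and IGF genes tested had a median log2 fold change of -0.06 [-0.17 to 0.02], with 0 [0 to 1] higher and 2 [2 to 4] lower in HS at p under 0.05. *SOCS2*, a growth hormone target that dampens its receptor, was 46.2, 53.4 and 77.6 CPM in HS against 104, 101 and 107 CPM in PF cows (-0.82 ± 0.25, FDR = 0.627), and *IGFBP6*, a binding protein of IGF2, 20.97, 24.1 and 20.5 CPM in HS against 26.99, 44.9 and 43.01 CPM in PF cows (-0.81 ± 0.25, FDR = 0.625). Of 20 genes of insulin and glucagon signaling tested of 21 listed, 1 [0 to 1] had p under 0.05 on the higher side and 0 on the lower, around a median log2 fold change of 0.12 [0.07 to 0.18]. The higher one was *SIK1*, a kinase that cyclic AMP induces, at 24.7, 13.1 and 16.3 CPM in HS against 7.75, 10.8 and 9.17 CPM in PF cows (0.96 ± 0.29, FDR = 0.625).

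For 28 genes of fatty acid and triglyceride synthesis tested the median log2 fold change was 0.10 [-0.13 to 0.14], and p under 0.05 was reached by 2 [2 to 3] genes higher in HS and 1 [1 to 7] lower. *LPIN1*, a phosphatidate phosphatase and coactivator, was 87.1, 72.1 and 84.3 CPM in HS against 39.7, 32.02 and 41.9 CPM in PF cows (1.10 ± 0.22, FDR = 0.226). *ELOVL5*, an elongase of polyunsaturated fatty acids, read 95.7, 71.4 and 130.1 CPM in HS against 439, 226 and 139 CPM in PF cows (-1.44 ± 0.41, FDR = 0.564), and DESeq2 called both. *ACACB*, whose malonyl-CoA restrains fatty acid entry into mitochondria, was 6.24, 7.02 and 0.942 CPM in HS against 0.474, 1.17 and 1.48 CPM in PF cows (2.17 ± 0.70, FDR = 0.669). Among the 32 cholesterol genes tested of 34 listed, the median log2 fold change was -0.31 [-0.78 to 0.05], with 1 [0 to 2] genes higher and 1 [0 to 13] lower in HS at p under 0.05. *INSIG1*, which holds the SREBP factors in the ER, was 236, 178 and 195 CPM in HS against 298, 633 and 247 CPM in PF cows (-0.96 ± 0.36, FDR = 0.806). The sterol exporter *ABCG8* was 51.02, 29.6 and 28.6 CPM in HS against 20.3, 25.8 and 19.2 CPM in PF cows (0.74 ± 0.27, FDR = 0.786). The cholesterol median was 0.05 without HS replicate 2.

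The 34 genes of fatty acid oxidation and ketogenesis tested of 36 listed had a median log2 fold change of -0.21 [-0.40 to -0.07], with 0 higher and 4 [1 to 8] lower in HS at p under 0.05. 28 were negative and 6 positive. *SLC25A20*, which carries acylcarnitine into mitochondria, was 70.6, 72.2 and 108 CPM in HS against 127, 131 and 143 CPM in PF cows (-0.68 ± 0.25, FDR = 0.786). *ACSL1*, which activates fatty acids, was 197, 158 and 180.1 CPM in HS against 296, 281 and 220.4 CPM in PF cows (-0.58 ± 0.25, FDR = 0.908). *CYP4A11*, a fatty acid omega-hydroxylase, had a log2 fold change of -0.86 ± 0.34 (FDR = 0.832). Of 21 apolipoprotein and VLDL genes tested of 25 listed, 2 [0 to 3] had p under 0.05 on the higher side and 0 [0 to 1] on the lower, around a median log2 fold change of -0.06 [-0.32 to 0.00]. These were *PLTP*, the phospholipid transfer protein (0.89 ± 0.30, FDR = 0.679), and *TM6SF2*, a factor of VLDL lipidation (0.72 ± 0.32, FDR = 0.914). For 23 bile acid genes tested of 26 listed the median log2 fold change was -0.13 [-0.35 to 0.08], and p under 0.05 was reached by 1 [0 to 2] genes higher in HS and 1 [0 to 4] lower. *ABCB11*, the bile salt export pump, was 714, 458 and 437 CPM in HS against 393, 324 and 218 CPM in PF cows (0.78 ± 0.32, FDR = 0.9).

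Glucose output genes held no nominal difference. Among the 26 genes of gluconeogenesis and propionate entry tested of 28 listed, the median log2 fold change was -0.13 [-0.31 to 0.03], with 0 [0 to 1] genes higher and 0 [0 to 3] lower in HS at p under 0.05. *PCK1*, the cytosolic enzyme that starts glucose production from oxaloacetate, was 692, 1236 and 926 CPM in HS against 1011, 1142 and 1785 CPM in PF cows (-0.47 ± 0.34). *LDHA* was lower in each HS cow, at 61.7, 45.02 and 45.02 CPM in HS against 66, 67.6 and 74.9 CPM in PF cows (-0.46 ± 0.23, FDR = 0.949). The 23 genes of glycogen and inositol metabolism tested had a median log2 fold change of -0.26 [-0.33 to -0.12], with 0 [0 to 1] higher and 2 [2 to 5] lower in HS at p under 0.05. Besides *MIOX*, the lower one was *GBE1*, the glycogen branching enzyme, at 31.7, 34.03 and 47.1 CPM in HS against 102, 55.7 and 56.2 CPM in PF cows (-0.93 ± 0.29, FDR = 0.642).

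Nitrogen from amino acids leaves the liver as urea. Of 16 urea cycle and ammonia genes tested of 17 listed, 3 [1 to 4] had p under 0.05 on the higher side and 0 [0 to 1] on the lower, around a median log2 fold change of 0.24 [-0.01 to 0.43]. *GLS2*, the liver glutaminase that feeds ammonia to the urea cycle, was 91.6, 121 and 109 CPM in HS against 52.4, 48.1 and 62.02 CPM in PF cows (0.98 ± 0.23, FDR = 0.35), and DESeq2 called it. *ARG2*, the mitochondrial arginase, read 3.47, 3.57 and 4.44 CPM in HS against 1.95, 1.45 and 2.55 CPM in PF cows (0.94 ± 0.42, FDR = 0.923), and *SLC25A15*, the ornithine carrier, had a log2 fold change of 0.76 ± 0.34 (FDR = 0.938). For 35 genes of amino acid catabolism tested the median log2 fold change was 0.06 [-0.13 to 0.26], and p under 0.05 was reached by 3 [2 to 5] genes higher in HS and 0 [0 to 1] lower. *ACMSD* of the tryptophan pathway was 46, 88.7 and 193 CPM in HS against 44.2, 37.2 and 20.1 CPM in PF cows (1.69 ± 0.47, FDR = 0.563). *PRODH2*, which breaks down hydroxyproline, was 29.02, 37.3 and 43.2 CPM in HS against 3.91, 22.5 and 15.3 CPM in PF cows (1.38 ± 0.47, FDR = 0.689).

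Among the 35 genes of one-carbon metabolism tested, the median log2 fold change was -0.08 [-0.29 to 0.03], with 3 [1 to 5] genes higher and 1 [1 to 4] lower in HS at p under 0.05. *GLDC*, which cleaves glycine, was 172, 140.4 and 162 CPM in HS against 89.9, 53.98 and 61.5 CPM in PF cows (1.202 ± 0.26, FDR = 0.315). *GNMT*, which methylates glycine and so spends S-adenosylmethionine, was 0.923, 3.27 and 1.75 CPM in HS against 0, 0.391 and 0.306 CPM in PF cows (3.03 ± 0.93, FDR = 0.638). *MAT1A*, which makes S-adenosylmethionine in liver, read 543, 564 and 733 CPM in HS against 277, 487 and 390.0 CPM in PF cows (0.67 ± 0.30, FDR = 0.924). *ALDH1L2*, a mitochondrial folate enzyme, was on the lower side, at 10.4, 4.21 and 5.05 CPM in HS against 23.1, 13.5 and 26.1 CPM in PF cows (-1.66 ± 0.38, FDR = 0.315).

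The 24 NRF2 target genes tested of 25 listed had a median log2 fold change of 0.06 [-0.09 to 0.17], with 1 higher and 0 [0 to 1] lower in HS at p under 0.05, the higher one being *HMOX1*. The 31 antioxidant genes tested had a median log2 fold change of -0.07 [-0.39 to 0.10], with 2 [2 to 4] higher and 1 [1 to 6] lower in HS at p under 0.05. *GPX2*, a glutathione peroxidase, was 0.295, 0.468 and 0.202 CPM in HS against 3.73, 2.46 and 1.33 CPM in PF cows (-2.93 ± 0.67, FDR = 0.315), with HS replicate 3 at the level of 3 counts. *SOD3*, the secreted superoxide dismutase, ranged from 7.35 to 143 CPM among HS cows and from 3.67 to 10.7 CPM among PF cows (3.18 ± 0.81, FDR = 0.408). *GPX3*, the plasma peroxidase, was 1184, 1607 and 37.7 CPM in HS against 15.98, 181 and 40.4 CPM in PF cows (3.58 ± 1.13, FDR = 0.654), with HS replicate 3 among the PF cows. Of 15 metallothionein and zinc transporter genes tested of 17 listed, 0 had p under 0.05 on the higher side and 0 on the lower, around a median log2 fold change of -0.01 [-0.24 to 0.08].

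For 33 xenobiotic enzyme genes tested of 37 listed the median log2 fold change was -0.21 [-0.63 to -0.04], and p under 0.05 was reached by 0 genes higher in HS and 2 [0 to 10] lower. 24 were negative and 9 positive. *CES1*, a carboxylesterase of drugs and lipid esters, was 1378, 1309.6 and 2242 CPM in HS against 3668, 3823 and 2358 CPM in PF cows (-1.003 ± 0.35, FDR = 0.704), and DESeq2 called it. *FMO5*, a flavin monooxygenase, read 255, 202 and 222 CPM in HS against 379, 388 and 310.0 CPM in PF cows (-0.67 ± 0.25, FDR = 0.813). Among the 29 hepatocyte transcription factor genes tested, the median log2 fold change was 0.16 [0.02 to 0.26], with 1 [1 to 4] genes higher and 1 [0 to 2] lower in HS at p under 0.05. Both were FOXA pioneer factors, *FOXA3* higher, at 47.96, 46.8 and 56.3 CPM in HS against 3.73, 21.3 and 17.2 CPM in PF cows (1.83 ± 0.47, FDR = 0.42), and *FOXA2* lower, at 35.04, 48.6 and 25.2 CPM in HS against 53.2, 73.1 and 60.3 CPM in PF cows (-0.78 ± 0.27, FDR = 0.712). The 26 hepatokine and TGF-beta family genes tested of 29 listed had a median log2 fold change of 0.04 [-0.24 to 0.17], with 0 [0 to 2] higher and 1 [0 to 2] lower in HS at p under 0.05. *FGF21* was the lower one.

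Of 57 cytosolic ribosomal protein genes tested, 0 had p under 0.05 on the higher side and 0 on the lower, around a median log2 fold change of -0.06 [-0.17 to 0.12]. For 22 cell cycle genes tested of 26 listed the median log2 fold change was 0.12 [-0.15 to 0.15], and p under 0.05 was reached by 0 genes higher in HS and 1 lower, the lower one being *CCNE2*, cyclin E2, at 5.02, 5.85 and 4.98 CPM in HS against 12.4, 6.43 and 11.01 CPM in PF cows (-0.91 ± 0.32, FDR = 0.7). For 21 cell death and p53 target genes tested the median log2 fold change was 0.17 [0.01 to 0.27], and p under 0.05 was reached by 1 [0 to 2] genes higher in HS and 2 [1 to 2] lower. *BAX*, which opens the outer mitochondrial membrane in apoptosis, was 14.1, 17.6 and 14.5 CPM in HS against 6.39, 12.9 and 9.63 CPM in PF cows (0.67 ± 0.29, FDR = 0.908). *TP53INP1* was 148, 124 and 129 CPM in HS against 294, 165 and 306 CPM in PF cows (-0.93 ± 0.29, FDR = 0.638). *GADD45G* was 17.3, 17.8 and 12.04 CPM in HS against 15.6, 35.5 and 33.4 CPM in PF cows (-0.84 ± 0.32, FDR = 0.806).

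**Figure D5:**
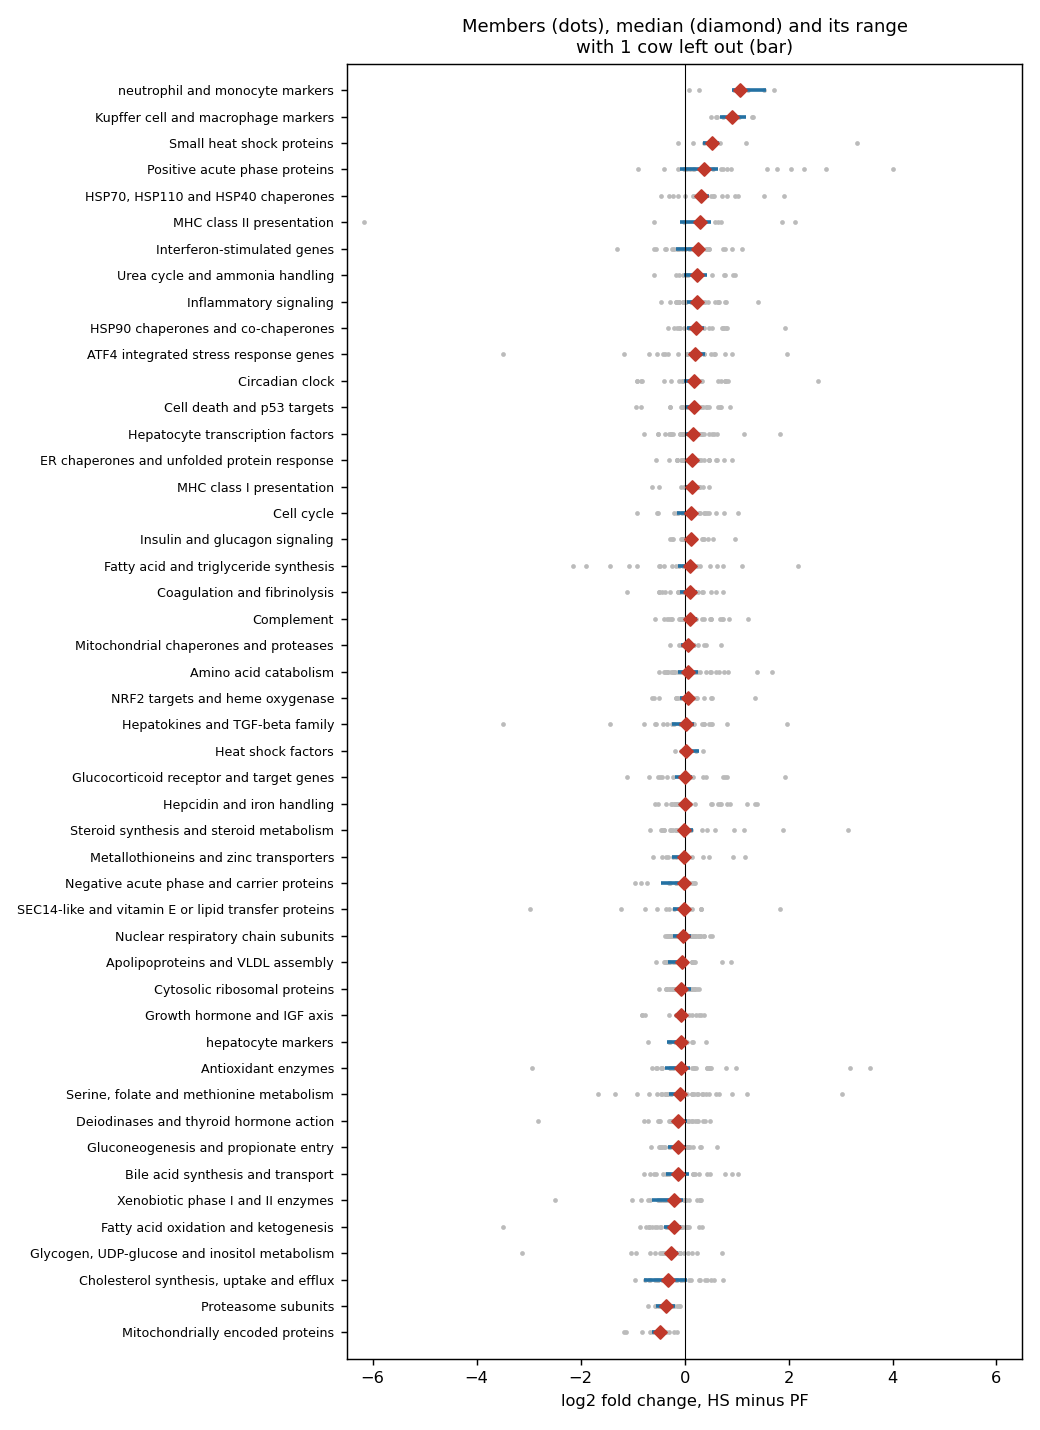
Each row is 1 of the 45 gene lists or the hepatocyte, macrophage or neutrophil markers, the other 11 marker lists not being drawn, with its members' log2 fold changes, HS minus PF, as grey dots, their median as a diamond and the range of that median over the 6 fits with 1 cow left out as a blue bar. Macrophage and neutrophil markers and small heat shock proteins lie at the top of the rows drawn and mitochondrially encoded proteins and proteasome subunits at the bottom, and several bars, such as that of the acute phase proteins, reach across 0.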

How the data were processed

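Liver biopsies of 9 cows (3 HS, 3 PF, 3 TN) were sequenced as polyA RNA, 1 library per cow, and groups and replicate numbers were taken from the labels. The values used are the authors' raw read counts per gene, deposited without normalization; per the labels and the study's methods, reads were cleaned with fastp 0.23.2, aligned to ARS-UCD1.2 with STAR 2.7.9a and counted with featureCounts 2.0.3. The annotation release and the strand and multi-mapping settings are not given in the sources used here. All 9 columns were mapped to a cow and 0 were left out.

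The 3 HS and 3 PF libraries were fitted with edgeR 4.0.16 in R 4.3.3 (TMM, filterByExpr, quasi-likelihood F test). P-values were adjusted by Benjamini-Hochberg across the 14510 tested genes, and DEGs needed an FDR below 0.1 plus a difference above 1.5-fold. The SE of a log2 fold change was its size divided by the square root of F. CPM used TMM over the 9 libraries, with 0.5 CPM added before log2 in the plot of mean levels, in the spread of list medians between cows and in the check of replicate numbers. The labels do not say that the replicates came from separate runs or dates, and p-values measure the spread between these cows. Intervals and the limit of 3 counts for a count of 0 cover counting error only, since reads carried no molecular identifiers. The libraries held 16874444 to 22557047 counts.

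The members and the 45 gene lists and 14 marker lists were chosen with earlier results of these data known, so no list is independent evidence, and lists are described by counts and medians without a test. Of 1123 different listed genes, 1055 were tested. Genes named are the DEGs, the 10 with the smallest p in each direction among genes without overlap and with a mean of at least 1 CPM in the higher group, list members with the smallest p or needed to describe a list's roles, and markers; any others were chosen after their values were seen. The planned search for genes correlated with each DEG was not made, since the HS and PF cows form separate clusters for the DEGs. Names and overlaps between genes came from RefSeq (ARS-UCD2.0); no sequence is printed.

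The fits were tested on simulated data, where DESeq2 recovered more of the changed genes than edgeR and also made more false calls. The alternatives were DESeq2 1.42.0, RLE scaling, library sizes without mitochondrial genes, other count filters, a joint fit of the 9 libraries, a replicate block, a stricter FDR of 0.05 and each cow left out in turn. Intake, milk yield and RT-qPCR were not analysed here. A few genes are not reported here.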

Additional observations from a re-analysis of the deposited data

How the results depend on the processing

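All 4 DEGs were also called by DESeq2, with RLE size factors, with mitochondrial genes out of the library sizes, without a filter on low counts and in all 6 fits with a cow left out. DESeq2 called 121 genes (72 higher, 49 lower), and edgeR without a filter 98 (69 higher, 29 lower), 77 of them shared with DESeq2. RLE size factors and library sizes without mitochondrial genes each gave 8 DEGs (3 higher, 5 lower), adding *APOBEC2*, *CRYAB*, *PDYN* and LOC112441460. At least 10 counts in every library gave 4 DEGs (2 higher, 2 lower), with *CRYAB* in and LOC100848815 removed by the filter. All 9 libraries in 1 fit gave 3 (0 higher, 3 lower), *PDYN* among them, and *CYP11A1* had an FDR of 0.124 and LOC100848815 of 0.162 there. With 1 cow left out the count was 5 to 10 DEGs, 2 to 6 higher and 3 to 4 lower; it was 8 without HS replicate 1, 7 without HS replicate 3, 8 without PF replicate 2 and 10 without PF replicate 3, and the cause was not tested. Genes named above that these fits added were *NR1D1* and *SOD3* without HS replicate 1, *CRYAB* without HS replicate 2 and *CHRM1* without HS replicate 3. Without PF replicate 1 it was *PRSS2*, and without PF replicate 2 *CRYAB* and *HSPH1*. Without PF replicate 3 they were *WFDC2*, LOC100847382 and LOC112441460. An unadjusted p under 0.05 was reached by 616 to 1059 genes with 1 cow left out. An FDR under 0.05 left the same count of 4.

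The study matched PF intake to that of HS counterparts, and the labels do not say which cows were matched. Deviations from the group means correlated at 0.047, -0.161 and -0.22 for numbers 1 to 3, while HS replicate 2 and PF replicate 3 reached 0.321. Deviations from a mean of 3 cows must cancel out, so these correlations cannot show whether cows were paired. With the replicate block the fit called 6 DEGs, 3 higher and 3 lower, adding *A2M* and *WFDC2*, and 654 genes had p under 0.05.

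The log2 ratio of mitochondrial to other counts differed by -0.597 between HS and PF, and the exact permutation p was 0.1 as for the share, the smallest 3 against 3 cows allow. Of the genes named, 4 turned direction under these alternatives, each with a cow left out: *IYD* (-0.19 to 0.36, negative without HS replicate 3), *KRT19* (-1.58 to 0.36, positive without PF replicate 2), *TTPA* (-0.37 to 0.053, positive without PF replicate 1) and *STAR* (-0.10 to 0.26, negative without HS replicate 1, PF replicate 2 or PF replicate 3). Of 765 list medians under the alternatives, 42 moved by more than the spread between cows. The erythrocyte and skeletal muscle lists had no tested member left with 10 counts in every library. The median of the deiodinase and thyroid hormone list, -0.12, was 0.0064 without HS replicate 1 and 0.051 without PF replicate 3. With 3 cows per group and a common dispersion of 0.109, differences between genes below the threshold are not shown to be absent.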

Other observations

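The genes here were chosen after their values were seen, from those that DESeq2 called and that no list above held. None was a DEG in edgeR, although *GSTT1* and *SLC17A9* were called without HS replicate 3, and 8 of the 14 without a filter on low counts. The log2 fold change, its SE and the FDR are those of edgeR. Of those higher in HS, *SLC11A1*, a metal ion transporter of the phagosome, was 31.9, 16.5 and 20.8 CPM in HS against 6.87, 3.35 and 7.44 CPM in PF cows (1.97 ± 0.36, FDR = 0.144). *CTSH*, a lysosomal protease, read 159, 73.3 and 87.4 CPM in HS against 37.9, 43.02 and 37.3 CPM in PF cows (1.43 ± 0.30, FDR = 0.291), and *IL1R2*, the decoy receptor of interleukin 1, 6.68, 14.3 and 35.2 CPM in HS against 2.31, 5.92 and 2.65 CPM in PF cows (2.35 ± 0.57, FDR = 0.38). The nucleoside enzyme *ADA*, adenosine deaminase, was 125, 76.6 and 116 CPM in HS against 43.03, 57.6 and 36.03 CPM in PF cows (1.21 ± 0.28, FDR = 0.315). *CDA*, cytidine deaminase, was 6.20, 7.02 and 14.9 CPM in HS against 2.49, 1.84 and 2.50 CPM in PF cows (2.03 ± 0.40, FDR = 0.215). *SLC17A9*, which loads ATP into vesicles, was 20.1, 17.2 and 10.2 CPM in HS against 4.56, 5.31 and 3.72 CPM in PF cows (1.81 ± 0.32, FDR = 0.127). *SLC7A2*, a carrier of arginine, lysine and ornithine, was 104, 122 and 129 CPM in HS against 61.4, 76.9 and 47.8 CPM in PF cows (0.93 ± 0.25, FDR = 0.504). *GGT1*, which breaks down glutathione outside the cell, was 107, 151 and 148 CPM in HS against 58.7, 76.5 and 72.98 CPM in PF cows (0.96 ± 0.25, FDR = 0.42). TN cows lay within the PF range in *SLC17A9*, at 4.12, 4.14 and 5.07 CPM, but reached into the HS range in *CTSH*, at 52.8, 90.8 and 45.8 CPM.

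Of those lower in HS, *IDH1*, the cytosolic isocitrate dehydrogenase that supplies NADPH, was 136, 121 and 174 CPM in HS against 289, 257 and 319.6 CPM in PF cows (-1.01 ± 0.26, FDR = 0.408), and TN cows, at 69.8, 154 and 131 CPM, overlapped HS. *GSTT1*, a glutathione transferase, read 102, 143 and 314 CPM in HS against 552, 529.7 and 524 CPM in PF cows (-1.53 ± 0.39, FDR = 0.408). *DHRS4*, a reductase of retinal and other carbonyls, was 391, 605 and 471 CPM in HS against 995, 971 and 974 CPM in PF cows (-1.01 ± 0.28, FDR = 0.564). *AKR1C4*, a hydroxysteroid dehydrogenase, was 396, 535 and 749 CPM in HS against 1105, 1706 and 831 CPM in PF cows (-1.12 ± 0.36, FDR = 0.668). *ACAD8*, an enzyme of valine breakdown, stood at 155, 174 and 188 CPM in HS against 429, 231 and 342 CPM in PF cows (-0.96 ± 0.29, FDR = 0.625). *NPR3*, the clearance receptor of natriuretic peptides, read 21.7, 13.04 and 16.3 CPM in HS against 39.5, 34.4 and 35.4 CPM in PF cows (-1.10 ± 0.24, FDR = 0.315).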
